A study of Mus musculus with 10 samples.

Results

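The core circadian clock genes were described in cultured mouse neurons treated with SP600125, which inhibits the JUN N-terminal kinases (JNK), or with DMSO alone. The set was fixed by name and held 10 genes, Clock, Arntl, Npas2, Per1, Per2, Per3, Cry1, Cry2, Nr1d1 and Nr1d2. Of these, 9 were measured among the 19938 genes of the array that had a probe set with 1 gene symbol, each by 1 probe set. Npas2 had no such probe set and was not analysed here. The cells were labelled terminally differentiated neurons of a 129Sv-C57Bl/6 background. They received SP600125 at 25 µM 3 times, 2 hours apart, or DMSO on the same schedule. Each group had 5 replicates, a to e, called biological in the design text, with 1 whole-transcript array each. Drug batch 1 (replicates a, b) and drug batch 2 (replicates c, d, e) are named in the labels as batches of the agent. The labels do not name separate cultures, so p-values cover the spread among these samples alone, and that spread may be technical. The labels give no synchronisation of the cultures, no hour of day and no interval between the last dose and the extraction of RNA.

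In the clock of mammalian cells, CLOCK or its paralogue NPAS2 pairs with BMAL1, the product of Arntl, and the pair switches on genes through E-box sequences. Among these genes are the Per and Cry genes, whose proteins return to the nucleus and block the pair, and Nr1d1 and Nr1d2, which encode the nuclear receptors REV-ERB alpha and beta. The REV-ERB proteins repress Arntl, and also Clock, by binding sites that their activating counterparts, the ROR receptors, share. JNK is known to phosphorylate the CLOCK and BMAL1 proteins, and SP600125 has been used to lengthen the period of cellular clocks.

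The sequences before the transcription starts are shown for the 4 genes that changed and for Per1, because the loop runs through short motifs in such regions. RefSeq windows on GRCm38.p6 were found for 9 of the 10 genes, 13 windows in all, and Per2 had no window in the table. Each sequence is the 250 bases before a start, read 5′ to 3′ on the strand of the gene, with motif matches in capitals. The motifs searched on both strands were the E-box CACGTG, the variant E-box CACGTT, the REV-ERB and ROR hexamer AGGTCA, the cAMP response element TGACGTCA, the D-box TTANGTAA, the AP-1 site TGANTCA and, added after the sequences had been read, the CCAAT box. No matches overlapped in the windows of the clock genes.
Arntl, chr7:113207215-113207464, plus strand: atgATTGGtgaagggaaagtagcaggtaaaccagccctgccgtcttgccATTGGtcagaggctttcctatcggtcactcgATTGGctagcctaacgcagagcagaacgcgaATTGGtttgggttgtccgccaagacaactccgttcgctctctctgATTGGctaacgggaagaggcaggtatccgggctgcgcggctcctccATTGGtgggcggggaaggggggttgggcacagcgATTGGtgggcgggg
Clock, chr5:76303503-76303752, minus strand: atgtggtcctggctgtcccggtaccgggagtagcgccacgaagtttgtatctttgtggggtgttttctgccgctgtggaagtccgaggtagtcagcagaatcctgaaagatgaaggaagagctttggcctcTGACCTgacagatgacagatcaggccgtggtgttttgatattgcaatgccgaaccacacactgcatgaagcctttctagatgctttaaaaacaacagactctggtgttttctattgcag
Nr1d1, chr11:98775378-98775627, minus strand: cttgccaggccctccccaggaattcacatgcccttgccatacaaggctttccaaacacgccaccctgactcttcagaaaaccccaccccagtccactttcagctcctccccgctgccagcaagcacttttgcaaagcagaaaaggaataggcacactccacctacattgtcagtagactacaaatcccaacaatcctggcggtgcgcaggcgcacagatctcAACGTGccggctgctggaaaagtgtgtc
Per1, chr11:69098699-69098948, plus strand: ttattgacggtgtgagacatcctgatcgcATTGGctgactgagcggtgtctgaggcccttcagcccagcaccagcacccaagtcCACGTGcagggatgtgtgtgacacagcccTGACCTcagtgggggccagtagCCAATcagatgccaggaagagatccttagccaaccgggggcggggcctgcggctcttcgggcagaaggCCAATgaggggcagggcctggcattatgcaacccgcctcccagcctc
Cry1, chr10:85185055-85185304, minus strand: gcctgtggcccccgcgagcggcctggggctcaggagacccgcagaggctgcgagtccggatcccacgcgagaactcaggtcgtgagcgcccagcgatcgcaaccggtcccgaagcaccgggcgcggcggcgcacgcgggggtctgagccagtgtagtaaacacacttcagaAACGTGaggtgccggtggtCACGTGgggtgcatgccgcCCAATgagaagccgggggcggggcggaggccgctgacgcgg

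The capitals in the printed Per1 window and in the Cry1 window include an E-box, which 6.02% of all 32851 promoter windows of this length held. The windows printed for Clock and Per1 are those with the most matches. The other Per1 window held 1 CCAAT box and no other motif, and the other Clock windows held no match. The variant E-box was found in the windows of Nr1d1, Cry1 and Cry2 and in 3.85% of all windows. The REV-ERB and ROR hexamer stands in capitals as TGACCT in 1 of the 3 Clock windows and in the printed Per1 window. It was also found before Nr1d2, and 14.0% of all windows held it. The D-box occurred 2 times before Per3 and in 2.06% of all windows. No window of a clock gene held the cAMP response element or the AP-1 site, which occurred in 1.55% and 6.75% of all windows. The CCAAT box, read as ATTGG on the other strand and known to be bound by the factor NF-Y, occurred 7 times in each of the 2 overlapping Arntl windows. It occurred at least once in 33.8% of all windows, and 3 windows of the table, the pair from Arntl included, held 7 or more. The Per1 window printed here held 3 of them, and 2.79% of all windows held as many. These matches describe letters and are not evidence of binding.

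Clock and Arntl, which encode both partners of the activating pair, fell after SP600125, and Nr1d1, a repressor of the pair's transcripts, rose. Clock fell by 26.0% and Arntl fell by 18.8%, and Nr1d1 rose 1.16-fold. Genes of the same signal level as Clock or Arntl also fell in the median, by less. The call of Nr1d1 was lost when arrays were centred on all probe sets and in either drug batch alone. Cry1 fell by a margin that rested on the scaling of the arrays. Per1 was higher after SP600125 but did not pass the threshold in the fit of the deposited values, and it passed under 6 of 23 alternatives. Per2, Per3, Cry2 and Nr1d2 did not pass in that fit, and Cry2 passed under 3 of 23 alternatives.

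Values below are the deposited log2 array values, and changes are SP600125 minus DMSO on the log2 scale, from limma with drug batch as a term, with p-values adjusted over all 19938 genes by the Benjamini-Hochberg method and a threshold of 0.05. On SP600125 arrays a to e, Clock, the partner with histone acetyltransferase activity, read 6.83, 6.98, 7.03, 6.79 and 6.91, against 7.49, 7.26, 7.34, 7.24 and 7.39 on DMSO arrays a to e. All SP600125 arrays lay below all DMSO arrays. The change was −0.43 (SE 0.07, n = 5 per group, limma adjusted p = 0.000484), and across 3359 genes with a mean level of 7 to 8 the median change was −0.22.

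Arntl read 6.19, 6.20, 6.41, 6.29 and 6.51 on the SP600125 arrays and 6.55, 6.48, 6.68, 6.65 and 6.74 on the DMSO arrays. The groups touched at 1 point, where SP600125 replicate e lay just above DMSO replicate b, and within each drug batch they did not overlap. The change was −0.30 (SE 0.06, n = 5 per group, limma adjusted p = 0.0015), and the median over 3829 genes at a level of 6 to 7 was −0.14.

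Nr1d1 read 7.12, 6.996, 7.09, 7.15 and 6.98 on the SP600125 arrays, against 6.68, 6.75, 6.91, 6.93 and 6.96 on the DMSO arrays. Every SP600125 array was above every DMSO array, although by little at replicate e. The change was 0.22 (SE 0.06, n = 5 per group, limma adjusted p = 0.0127), opposite in sign to the median change of genes of its level. When arrays were centred on all probe sets, which moved the median change of all genes to −0.13 from −0.03, Nr1d1 was at 0.12 and did not pass (limma adjusted p = 0.142). In the RefSeq annotation the Nr1d1 gene overlaps Thra, a thyroid hormone receptor gene, and whether the probe set separates their transcripts was not tested. Thra was looked up for that overlap alone, and it fell by 0.22 (SE 0.08, limma adjusted p = 0.0336) on the deposited values and did not pass after cyclic loess (−0.08, limma adjusted p = 0.391). Nr1d2, the second REV-ERB gene, averaged 6.62 ± 0.07 after SP600125 and 6.61 ± 0.07 after DMSO (SD, n = 5), a change of 0.00 with a 95% confidence interval from −0.12 to 0.13.

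Per1, the period gene that responds fastest to stimuli, read 7.80, 8.02, 7.94, 7.80 and 8.04 on the SP600125 arrays and 7.55, 7.73, 7.82, 7.79 and 7.82 on the DMSO arrays. The groups overlapped narrowly, because SP600125 replicates a and d lay at the level of the batch 2 DMSO arrays. The change was 0.18 (SE 0.07, n = 5 per group, limma adjusted p = 0.0516), while genes of its level had a median change of −0.22. After cyclic loess, a normalization that removes differences between arrays that depend on signal level, Per1 passed at 0.37 (SE 0.06, limma adjusted p = 0.00156). Quantile normalization also brought it past the threshold, at 0.31 (limma adjusted p = 0.00436), and it did not pass after centring on all probe sets, at 0.08 (limma adjusted p = 0.394). Without SP600125 replicate d it passed at 0.22 (limma adjusted p = 0.0267). It passed as well after centring on named genes (0.21, limma adjusted p = 0.0187), with dim genes left out (limma adjusted p = 0.0399) and with a trended, robust eBayes (limma adjusted p = 0.035).

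The other period genes stayed within the spread of the arrays. Per2, whose protein holds the repressor complex together with Cry proteins, averaged 6.31 ± 0.10 after SP600125 and 6.33 ± 0.06 after DMSO (SD, n = 5), a change of −0.02 with a 95% confidence interval from −0.15 to 0.11. Per3, a period gene that is dispensable for rhythms in mice, averaged 5.53 ± 0.05 after SP600125 and 5.46 ± 0.11 after DMSO (SD, n = 5), a change of 0.06 with an interval from −0.07 to 0.20. Per3 was the dimmest of the 9 genes, and its DMSO mean still lay above that of 96.8% of 1027 olfactory receptor genes, which serve as a measure of background signal.

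Cry1, a cryptochrome and the stronger repressor of the pair, read 7.16, 7.49, 7.15, 6.99 and 7.29 on the SP600125 arrays, against 7.43, 7.41, 7.52, 7.38 and 7.42 on the DMSO arrays. All SP600125 arrays but replicate b lay below every DMSO array. The change was −0.21 (SE 0.08, n = 5 per group, limma adjusted p = 0.0413), beside a median of −0.22 for genes of its level. After cyclic loess it was −0.04 (SE 0.07, limma adjusted p = 0.665), and after centring on all probe sets −0.31 (limma adjusted p = 0.00474). The call also depended on single arrays. It was kept without DMSO replicate b, SP600125 replicate b or SP600125 replicate e, and it was lost without any of DMSO replicates a, c, d and e and SP600125 replicates a, c and d, with changes from −0.16 to −0.23 and adjusted p from limma of 0.0563 to 0.116. Cry2, the other cryptochrome, averaged 7.27 ± 0.14 after SP600125 and 7.397 ± 0.12 after DMSO (SD, n = 5), a change of −0.12 with a 95% confidence interval from −0.28 to 0.03. Without SP600125 replicate b, Cry2 passed at −0.19 (limma adjusted p = 0.0216).

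**Figure D1:**
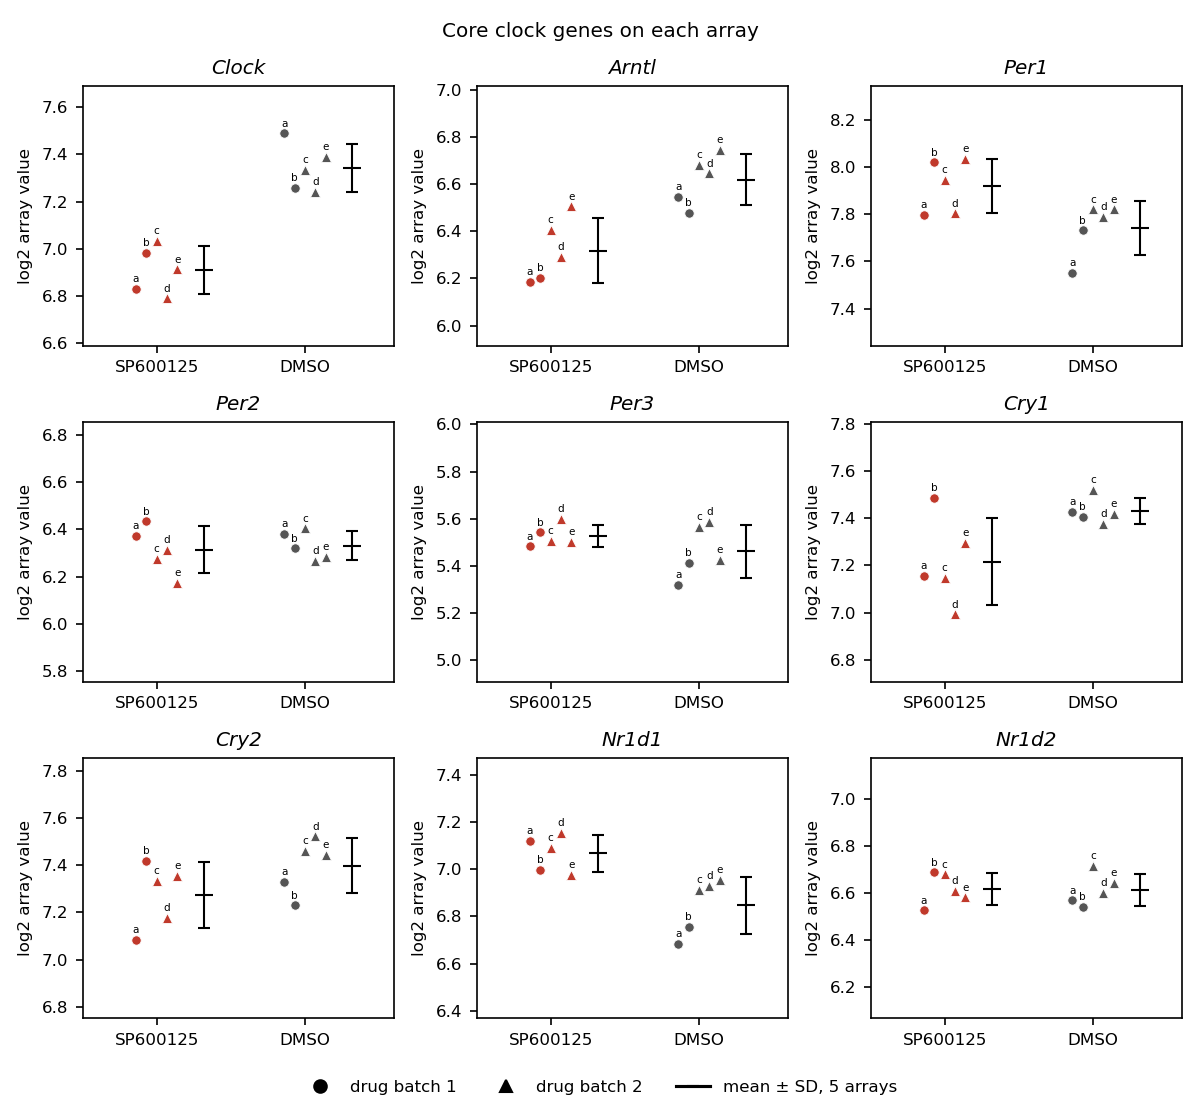
Deposited log2 values of the 9 measured clock genes on each array, SP600125 left and DMSO right, with the replicate letter at each point and the drug batch as its shape. Every panel spans the same range of log2 units; bars are the mean ± SD of 5 arrays. The groups are fully apart for Clock and Nr1d1, and Cry1 on SP600125 replicate b (7.49) sits among the DMSO arrays.

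Of the 9 measured clock genes, 4 passed the threshold (44.4%), 3 of them lower and 1 higher after SP600125. Among all genes 46.9% passed, 29.9% lower and 17.0% higher. The share of clock genes called thus lay near that of all genes and says nothing particular about the clock. The median change of the 9 genes was −0.02, against −0.03 for all genes. The groups did not overlap for 2 of the 9, against 23.1% of all genes. After cyclic loess, 4 of the 9 genes passed as well, with Clock (−0.28, limma adjusted p = 0.00631) and Arntl (−0.23, limma adjusted p = 0.0105) lower, Nr1d1 (0.35, limma adjusted p = 0.00191) and Per1 higher, and Cry1 no longer among them. The share of all genes that passed was then 27.2%, with 17.7% lower and 9.44% higher. Of all calls on the deposited values 36.2% were rises, against 34.7% after cyclic loess. Quantile normalization gave 30.0% of genes called, 22.5% lower and 7.51% higher, so that 25.0% of calls were rises. Centring on all probe sets gave 50.7% called, 43.1% lower and 7.52% higher, with 14.8% of calls being rises. Centring on named genes gave 47.7% called, 25.3% lower and 22.3% higher, with 46.9% of calls being rises.

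**Figure D2:**
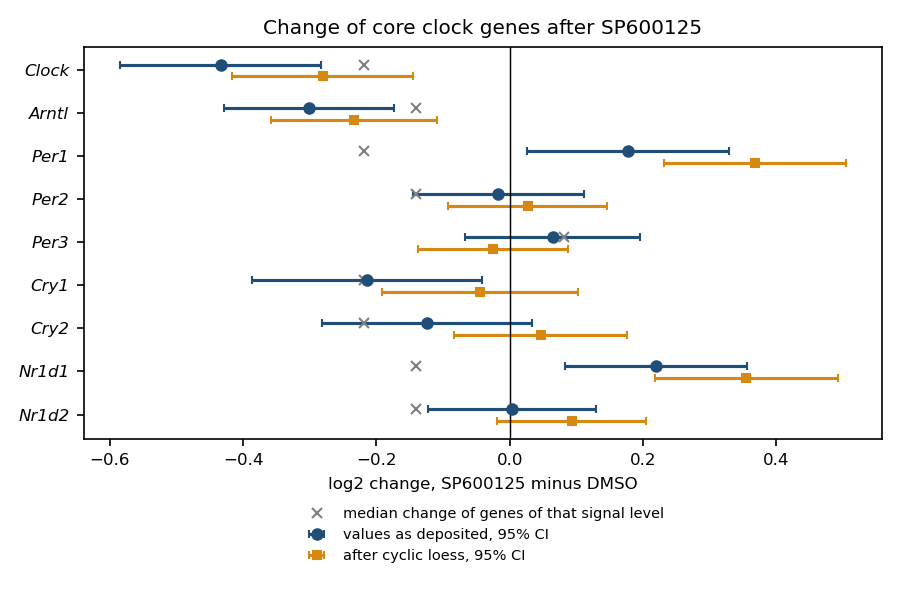
Log2 change (SP600125 minus DMSO) of each clock gene with its 95% confidence interval, on the deposited values (circles) and after cyclic loess (squares), n = 5 arrays per group. Crosses mark the median change of genes in the same band of signal, 1 log2 unit wide. Clock and Arntl lie below 0 and Nr1d1 above 0 under both, whereas Cry1 moves to −0.04 after cyclic loess.

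The difference between 2 genes on the same array does not depend on a shift common to that array. Differences between arrays that depend on signal level can remain in it where the genes differ in level. Nr1d1 minus Arntl was 0.93, 0.79, 0.68, 0.86 and 0.47 on SP600125 arrays a to e, against 0.14, 0.28, 0.23, 0.28 and 0.21 on DMSO arrays a to e. Nr1d1 thus stood higher relative to Arntl on every SP600125 array than on any DMSO array. The means were 0.75 ± 0.18 after SP600125 and 0.23 ± 0.06 after DMSO (SD, n = 5). Whether the change of either gene led to that of the other was not tested. Nr1d1 minus Clock averaged 0.16 ± 0.16 after SP600125 and −0.50 ± 0.19 after DMSO (SD, n = 5), and Per1 minus Arntl averaged 1.602 ± 0.13 after SP600125 and 1.12 ± 0.09 after DMSO (SD, n = 5), both without overlap. Clock minus Arntl overlapped, at 0.59 ± 0.14 after SP600125 and 0.72 ± 0.14 after DMSO (SD, n = 5). Nr1d1 minus Cry1 overlapped as well, at −0.15 ± 0.26 after SP600125 and −0.58 ± 0.13 after DMSO (SD, n = 5). So did Nr1d1 minus Nr1d2, Per1 minus Per2 and Cry1 minus Cry2, whereas Per1 minus Clock did not. Such differences show unequal change and are given without a test, since the pairs were chosen with the changes known.

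**Figure D3:**
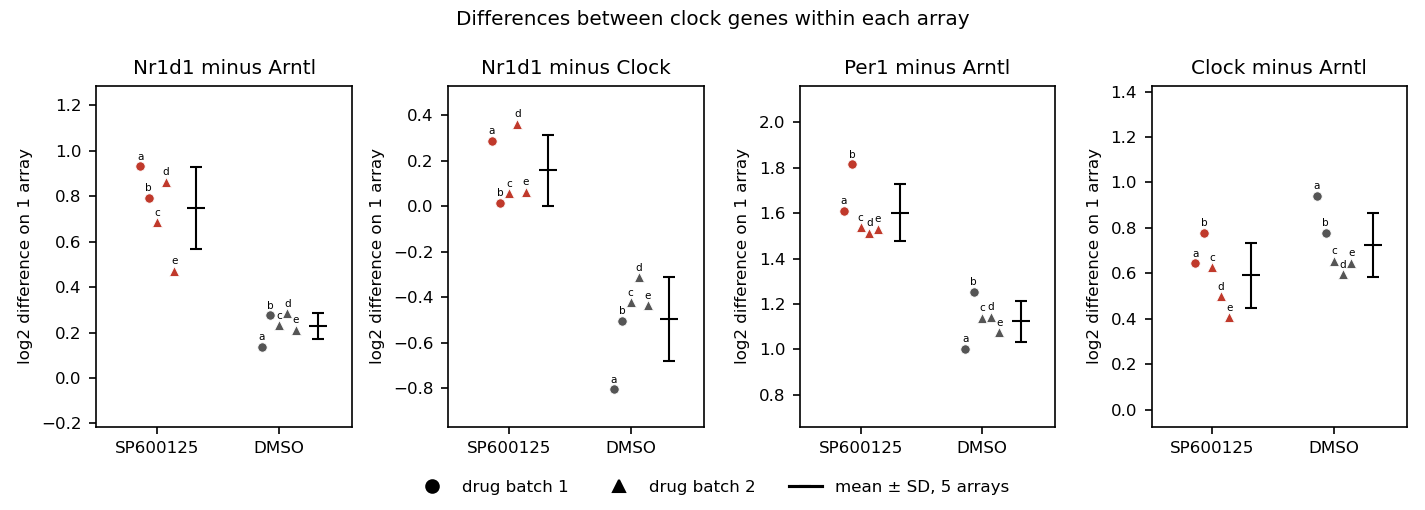
Difference of log2 values between 2 clock genes on the same array, SP600125 left and DMSO right, for 4 pairs of genes, with letters for replicates, shapes for drug batches and bars for the mean ± SD of 5 arrays. Both Nr1d1 panels and the panel of Per1 minus Arntl show groups that do not overlap, and Clock minus Arntl overlaps (0.59 ± 0.14 after SP600125 and 0.72 ± 0.14 after DMSO).

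The response was compared between the drug batches. Clock changed by −0.41 in drug batch 2 alone (3 arrays against 3) and by −0.47 in drug batch 1 alone (2 against 2), and Arntl by −0.29 in batch 2 and −0.32 in batch 1. Nr1d1 changed by 0.14 in batch 2 and 0.34 in batch 1, and Per1 by 0.12 in batch 2 and 0.27 in batch 1. Cry1 changed by −0.29 in batch 2 and −0.09 in batch 1. The interaction of treatment and batch passed for 0 of the 9 genes in limma, and for none at an unadjusted p under 0.05. Over all genes it passed for 0.00%, with 1852 genes at an unadjusted p under 0.05. No difference between batches was called for a clock gene either, against 0.722% of all genes (0.547% higher and 0.176% lower in batch 2), and Arntl, 0.19 higher in batch 2 than in batch 1 (SE 0.06, limma adjusted p = 0.163), had the largest.

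The arrays themselves differed in ways that touch these values. The median of the olfactory receptor genes, the measure of background, was 3.86 to 3.95 on SP600125 arrays and 3.58 to 3.75 on DMSO arrays. The part of this higher background in the rises of dim genes named below was not tested. The SD over genes ran from 1.63 to 1.71 on the SP600125 arrays and from 1.76 to 1.84 on the DMSO arrays, and the median change was 0.08 for genes at a level of 5 to 6 and −0.22 at 7 to 8. The 12 pan-neuronal markers had array means of 8.32 to 8.93 after SP600125 and 8.71 to 9.10 after DMSO, and 11 of them fell, led by Elavl4 (−0.81, SE 0.12) and Eno2 (−0.75, SE 0.12). The highest SP600125 array and the lowest DMSO array were both replicate b, so these arrays stood apart. Without both b arrays, an alternative chosen after seeing the data, 5 of the 9 clock genes passed, 4 lower and 1 higher, against 48.7% of all genes, 31.6% lower and 17.1% higher. Nr1d1 was then at 0.21, Clock at −0.47, Arntl at −0.31, Cry1 at −0.29 and Cry2 at −0.20. With all arrays Cry2 was not called on the deposited values.

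Markers of other cells were measured too. Collagen genes carried strong signal, with Col1a1 at 10.2 ± 0.12 after SP600125 and 10.9 ± 0.04 after DMSO and Col1a2 at 10.1 ± 0.04 after SP600125 and 10.7 ± 0.05 after DMSO (SD, n = 5), and 4 of 8 fibroblast and endothelial markers fell. Array means over those 8 were 8.17 to 8.28 after SP600125 and 8.40 to 8.54 after DMSO. Of 8 astrocyte markers 1 rose and 4 fell, led by Gfap (−0.36, SE 0.06) and Aldoc (−0.23, SE 0.06), with array means of 8.28 to 8.38 after SP600125 and 8.36 to 8.43 after DMSO. Of 8 oligodendrocyte lineage markers 5 fell, led by Cnp (−0.47, SE 0.07) and Gpr17 (−0.47, SE 0.09), with array means of 6.91 to 7.02 after SP600125 and 7.11 to 7.17 after DMSO. Of 6 neural progenitor markers 2 fell, Nes (−1.34, SE 0.06) and Vim (−0.16, SE 0.05), and array means were 8.04 to 8.12 after SP600125 and 8.28 to 8.36 after DMSO. The median change of those 6 was −0.01, and Sox2 (0.04), Pax6 (0.13) and Sox1 (0.01), chosen after their values were seen, did not pass. After cyclic loess Pax6 passed, at 0.27 (limma adjusted p = 0.0084). Of 8 microglia and macrophage markers 3 rose, led by Cx3cr1 (0.44, SE 0.10) and Aif1 (0.23, SE 0.08), with array means of 4.70 to 4.84 after SP600125 and 4.54 to 4.69 after DMSO. Of 4 glutamatergic markers Slc17a6 fell (−0.84, SE 0.13) and Slc17a7 rose (0.22, SE 0.08). Of 5 GABAergic markers 3 fell and 1 rose, with Gad1 at −0.64 (SE 0.13) and Gad2 at −0.57 (SE 0.13). Of 6 pluripotency markers 3 rose, led by Dppa5a (0.72, SE 0.09) and Tdgf1 (0.46, SE 0.07). Of 7 genes known from neurons of the suprachiasmatic nucleus, the seat of the central clock, 1 rose and 2 fell, Rorb (−0.36, SE 0.07) and Lhx1 (−0.30, SE 0.11). Among all genes 17.0% rose and 29.9% fell. After cyclic loess, when 9.44% rose and 17.7% fell, the pan-neuronal list had 9 falls, the fibroblast and endothelial list 4 falls, the oligodendrocyte list 3 falls and the pluripotency list 3 rises. The astrocyte list then had 2 rises and 2 falls, the progenitor list 1 rise and 1 fall, the glutamatergic list 2 falls, the GABAergic list 1 rise and 3 falls, the microglia list 1 rise and the suprachiasmatic list 1 fall. The microglia median was 0.11 on the deposited values and −0.02 after cyclic loess. Slc17a7, Vim, Aif1 (limma adjusted p = 0.348) and Lhx1 (limma adjusted p = 0.107) were no longer called under that normalization. In these bulk samples fewer cells of a type and less RNA per cell cannot be told apart, and the part of these differences in the clock values was not tested.

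The clock's accessory loop split by gene. Of 8 measured genes 2 rose, 2 fell and 4 did not pass, where 17.0% of all genes rose and 29.9% fell. Cyclic loess gave 2 rises and 1 fall, against 9.44% and 17.7% of all genes. The median over the list was 0.01. Rora, a ROR receptor known to activate Arntl, rose by 0.24 (SE 0.06, limma adjusted p = 0.00466), at 6.98 ± 0.05 after SP600125 and 6.74 ± 0.06 after DMSO (SD, n = 5). Rorb, its relative of sensory and clock neurons, fell by 0.36 (SE 0.07, limma adjusted p = 0.00186), at 6.09 ± 0.09 after SP600125 and 6.46 ± 0.13 after DMSO. The E-box repressors DEC1 and DEC2 went opposite ways, with their genes Bhlhe40 higher by 0.25 (SE 0.06, limma adjusted p = 0.00586) and Bhlhe41 lower, at −0.25 (SE 0.08, limma adjusted p = 0.0174). Bhlhe41 did not pass after cyclic loess (−0.18, limma adjusted p = 0.0988). After centring on all probe sets, Rora (0.14, limma adjusted p = 0.0827) and Bhlhe40 (0.15, limma adjusted p = 0.0873) did not pass. The 3 PAR bZIP output factors Dbp, Tef and Hlf, which are direct targets of CLOCK and BMAL1, gave no call in limma, and none had an unadjusted p under 0.05. Dbp was at 5.99 ± 0.04 after SP600125 and 5.91 ± 0.15 after DMSO (SD, n = 5; change 0.08, SE 0.07). After cyclic loess Tef was at 0.19 (limma adjusted p = 0.0553) and Dbp at 0.06.

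Of 14 measured genes for kinases and turnover factors that act on clock proteins, 10 fell, 1 (Usp2, described with the outputs) rose and 3 did not pass, where 29.9% of all genes fell and 17.0% rose. The median over the list was −0.27, against −0.03 over all genes and −0.22 over genes at a level of 7 to 8. Its median after cyclic loess was −0.12, against −0.02 over all genes. Prkaa1, a catalytic subunit of the AMP-activated kinase that marks cryptochromes for turnover, fell by 0.50 (SE 0.06), and Fbxw7, a ubiquitin ligase subunit, by 0.41 (SE 0.06). Gsk3b, a kinase of several clock proteins, fell by 0.34 (SE 0.08), and Csnk1e, a casein kinase that phosphorylates PER proteins, by 0.32 (SE 0.07). Csnk1d, another casein kinase of the list, was chosen after its values were seen. It did not pass at 0.02 (limma adjusted p = 0.826) and rose after cyclic loess, at 0.20 (limma adjusted p = 0.01). For Fbxw7 the mean of all its probe sets gave a smaller change, −0.17 (limma adjusted p = 0.0342). After cyclic loess 4 of the 14 fell and 2 rose, where 17.7% of all genes fell and 9.44% rose, and Csnk1e did not pass (−0.16, limma adjusted p = 0.0658). Of 11 clock cofactors 7 fell and none rose, where 29.9% of all genes fell, and after cyclic loess 2 fell and 2 rose, where 17.7% of all genes fell and 9.44% rose. Sfpq, an RNA- and DNA-binding partner of PER proteins, fell by 0.38 (SE 0.07), the deacetylase Sirt1 by 0.29 (SE 0.08), Wdr5 by 0.27 (SE 0.07) and the histone methyltransferase Kmt2a by 0.23 (SE 0.06). Of these 4 only Sfpq passed after cyclic loess.

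Among the inputs that reach the Per genes, of 10 genes of the cAMP and CREB route 1 rose and 3 fell. Among all genes 17.0% rose and 29.9% fell. Cyclic loess left 1 rise and no fall in that list, where 9.44% of all genes rose and 17.7% fell. The transcription factor Creb1 fell by 0.27 (SE 0.05), its coactivator Crtc1 by 0.25 (SE 0.08) and the protein kinase A subunit Prkacb by 0.25 (SE 0.08), while Vipr2, the receptor for vasoactive intestinal peptide, rose by 0.20 (SE 0.06) from a dim signal (5.20 ± 0.08 after SP600125 and 4.99 ± 0.05 after DMSO, SD, n = 5). None of these 4 passed after cyclic loess. Of 9 genes of the glucocorticoid response, which also induces Per1, none rose and 2 fell, Fkbp5 by 0.51 (SE 0.06) and Sgk1 by 0.34 (SE 0.06), and both passed after cyclic loess. After cyclic loess 2 of the glucocorticoid list rose and 3 fell, against 9.44% and 17.7% of all genes.

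A further list held 12 genes taken as E-box outputs of the clock, and whether each holds an E-box was not examined here. Of these 12 genes, 8 also stand in the pathway or marker lists above. In the list 4 rose, 4 fell and 4 did not pass, where 17.0% of all genes rose and 29.9% fell. After cyclic loess 2 rose and 1 fell, against 9.44% and 17.7% of all genes. Nampt, the rate-limiting enzyme of NAD salvage, fell by 0.45 (SE 0.08), and Wee1, a kinase that restrains entry into mitosis, by 0.29 (SE 0.07). Usp2, a ubiquitin protease of clock proteins, rose by 0.32 (SE 0.06), at 6.77 ± 0.05 after SP600125 and 6.44 ± 0.08 after DMSO (SD, n = 5), with no overlap between the groups. Pdk4, a mitochondrial kinase that restrains pyruvate dehydrogenase, rose by 0.34 (SE 0.08) at a dim signal of 4.20 ± 0.14 after SP600125 and 3.86 ± 0.12 after DMSO. Of these, Usp2 and Nampt passed after cyclic loess, whereas Wee1 (limma adjusted p = 0.248) and Pdk4 (limma adjusted p = 0.0597) did not. The plot of pathway lists shows that calls lay on both sides of 0 in the accessory loop and among the outputs.

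**Figure D4:**
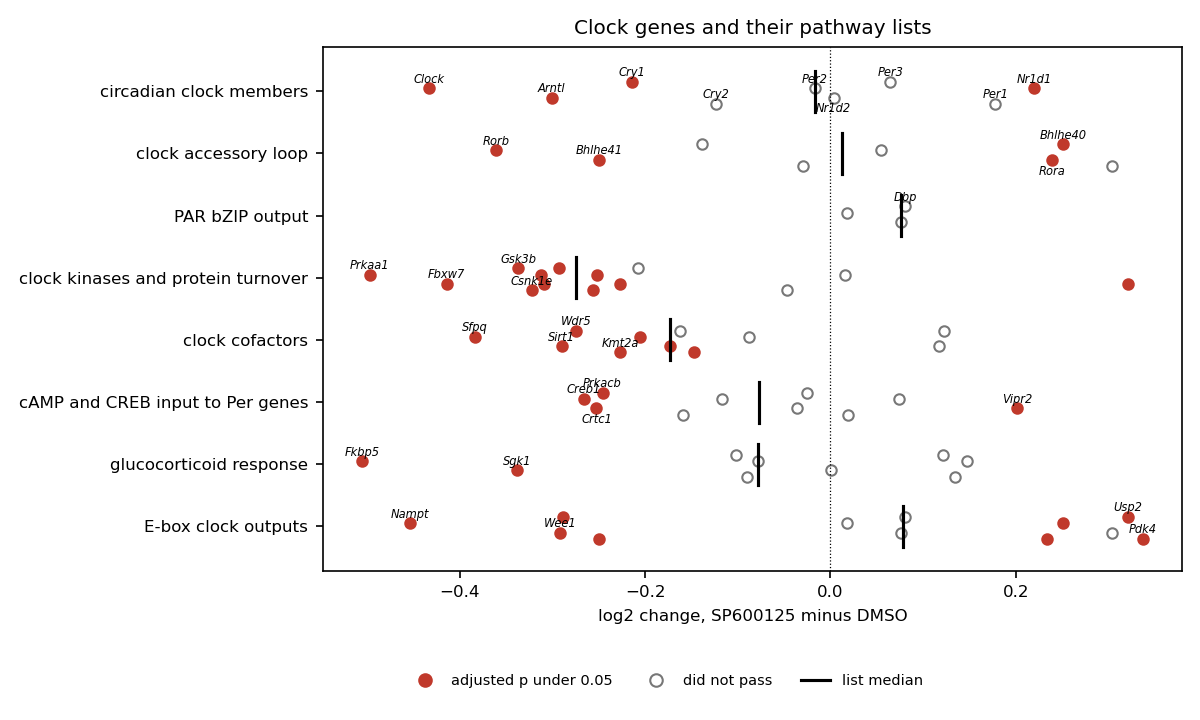
Log2 change (SP600125 minus DMSO) of each measured gene of the clock set and of 7 related lists, 1 point per gene, filled where the adjusted p from limma was under 0.05, with a bar at each list's median. The clock set, the accessory loop and the outputs have medians near 0 (−0.02, 0.01 and 0.08), and the kinase list lies lower (−0.27). Genes at a level of 7 to 8 had a median change of −0.22, and the kinase median after cyclic loess was −0.12.

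Genes with profiles close to those of the 4 called clock genes were picked by the root mean square (RMS) difference of values centred on each gene's mean, over the 10 arrays. Closest to Clock were Tdrkh and Pgrmc1, each at an RMS difference of 0.044, where the RMS of Clock's own profile was 0.235. Mrpl40 (0.031) and Lyrm2 (0.038) came closest to Arntl, Pank1 (0.047) and Dact1 (0.055) to Cry1, and Tnfrsf18 (0.048) and Pdcl2 (0.059) to Nr1d1. Among the clock genes the farthest pair was Clock and Nr1d1 (0.36), and Clock and Arntl were 0.14 apart. In the same fit Mapk8, Mapk9 and Mapk10, the genes of the 3 JNK enzymes, fell, at −0.34, −0.45 and −0.56, and so did Jun, at −0.56, whereas the immediate early gene Nr4a1 rose by 0.78 (SE 0.09). All of these but Mapk8 (limma adjusted p = 0.0851) also passed after cyclic loess. Fos did not pass on the deposited values (0.14, limma adjusted p = 0.319) or after cyclic loess (0.27, limma adjusted p = 0.066).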

How the data were processed

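Each RNA sample was run on its own array (labels' protocols). The authors deposited log2 values per probe set. The submitters' processing notes name oligo 1.14.0. How background and array differences were handled is not given in the sources used here, and the log2 scale was read from the values (1.9 to 13.8). They were used as deposited. Of 35556 probe sets, 21789 carried 1 symbol in the platform annotation, and the probe set of the highest mean stood for a gene. R 4.3.3 with limma 3.58.1 fitted treatment and drug batch (lmFit, eBayes, two-sided tests, 7 residual degrees of freedom), and the script was tested on simulated data. Promoter windows came from RefSeq (GRCm38.p6). The number of arrays limits the precision.

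Named were all clock genes, up to 4 changed genes of each pathway list and up to 2 of each marker list (the largest change where none passed), and the 2 genes closest in profile to each called clock gene. Members and lists were chosen with earlier results of these data known. Alternatives were 4 scalings, no batch term, a replicate block, a dim filter, other probe sets, another eBayes setting, each batch alone and each array left out. Leaving out both b arrays was chosen after seeing the data.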

Additional observations from a re-analysis of the deposited data

Results flagged for a closer look

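Among 62 named genes, 12 values lay far from the other 4 arrays of their group by Dixon's test, 11 of them on a b array and 0 of them for a clock gene. Chance gives such a value in about 1 in 20 groups, and 124 groups were examined. SP600125 replicate a was low for Bhlhe40 (6.85). SP600125 replicate b was high for Prkacb (10.2), Gad1 (9.002), Gfap (8.25), Col1a1 (10.4) and Dact1 (7.56). DMSO replicate b was low for Prkacb (10.02), Elavl4 (6.64), Slc17a6 (9.57), Gad1 (8.75), Gad2 (8.40) and Fos (9.17).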

How the results depend on the processing

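Clock and Arntl kept their direction under all 23 alternatives and their call under 22, and Nr1d1 under 20, failing in each drug batch alone and after centring on all probe sets. With no batch term, a replicate block, a dim filter, other probe sets or another eBayes setting, their estimates could not change. Those settings bear on the call alone. The count of called clock genes, 4, was 3 to 5 when single arrays were left out and 0 in drug batch 1 alone (2 arrays against 2), where 1 gene of the whole array passed. Over all genes 9351 passed, 7673 to 9687 with single arrays left out, against 5991 after quantile normalization and 5419 after cyclic loess. A pairing of the samples by letters a to e was not apparent. Correlations of same-lettered deviations ran from −0.21 to 0.10, and 1 of 5 SP600125 arrays was closest to its own letter. Such deviations also hold differences between whole arrays, so they cannot exclude a pairing. With a replicate block 8252 genes and 3 clock genes passed, without Cry1 (limma adjusted p = 0.0531).

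Genes that did not pass changed sign under some alternatives. Per2 was at 0.027 after cyclic loess, 0.017 after centring on named genes and 0.053 in drug batch 1, and from −0.037 to 0.013 with single arrays left out (above 0 without DMSO replicate c or SP600125 replicate e). Per3 was at −0.049 after quantile normalization, −0.025 after cyclic loess and −0.036 after centring on all probe sets. Cry2 was at 0.047 after cyclic loess. Nr1d2 was at −0.097 after centring on all probe sets, −0.028 in drug batch 2 and −0.032 without both b arrays, and from −0.029 to 0.025 with single arrays left out. Dbp was at −0.020 after centring on all probe sets and −0.0092 in drug batch 2, and Fos at −0.040 without both b arrays. The causes were not tested. The number of arrays limits what can be seen: standard errors of the clock genes were 0.059 to 0.080.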
